A study of Mus musculus with 9 samples.

Results

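The collagen genes of the mouse atrioventricular (AV) node were examined as a family. Every symbol made of Col, a type number, a and a chain number was taken from the deposited table, which gave 43 genes of 34198 listed. Of these, 36 reached 1 CPM (a gene's count scaled to a common library total) in at least 3 of 9 libraries and were tested. They were 10 of 11 fibrillar genes, 6 of 6 basement membrane genes, 8 of 9 FACIT genes (fibril-associated collagens with interrupted triple helices) and 12 of 17 genes of other types. The other 7, Col24a1, Col19a1, Col6a4, Col6a5, Col10a1, Col17a1 and Col25a1, are described by level only, and none of them passed 0.72 CPM in any library. Closest to the filter from inside was Col9a1, at 1 CPM or more in exactly 3 libraries, and from outside Col25a1, with 0.72 CPM in its highest library.

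Nodes were dissected from C57BL/6J mice in 3 groups of 3 libraries: control (libraries 1 to 3), Cx3cr1 Cx43-/- (libraries 4 to 6) and macrophage-depleted Cd11bDTR (libraries 7 to 9). The name Cx3cr1 Cx43-/- marks loss of connexin 43, the gap junction protein encoded by Gja1, in cells that express the chemokine receptor Cx3cr1, and Cd11bDTR mice carry a diphtheria toxin receptor under the promoter of CD11b, an integrin that monocytes and neutrophils carry as well as macrophages. Within a group the libraries are biological replicates, by the design text. The labels do not give age, toxin schedule, the alleles of the control mice or whether nodes were pooled. The questions put to the collagen genes were whether their levels differed when macrophages were depleted and when macrophages lacked connexin 43.

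Collagens are built from alpha chains that wind into a triple helix in the endoplasmic reticulum, are secreted, trimmed and crosslinked. Fibrillar types I, III and V form the load-bearing fibrils of the heart's connective tissue, and type IV forms the sheet-like network of basement membranes around cardiomyocytes and vessels. FACIT collagens sit on fibril surfaces, type VI forms beaded filaments near cells, type VIII forms short-chain networks, and types XV and XVIII border basement membranes. In the AV node, fibrous tissue separates nodal myocytes from the working myocardium, and fibroblasts are the main source of fibrillar chains in the heart.

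Listed genes filled 42.8% to 48.7% of the CPM total in control, 46.8% to 47.9% in Cx3cr1 Cx43-/- and 28.3% to 44.0% in depleted libraries, with library 9 lowest. A single read was worth 0.0154 to 0.0192 CPM, so 1 CPM rested on 52.2 to 65.0 reads. Cd163, a scavenger receptor of resident macrophages, stood at 10.6 to 17.6 CPM in control, 16.8 to 29.4 in Cx3cr1 Cx43-/- and 0 to 0.34 in depleted libraries. Itgam, the gene of CD11b, overlapped between groups, at 1.64 to 8.93 CPM in control and 2.34 to 9.72 in depleted libraries. Gja1 stood at 163 to 246 CPM in control and 179 to 249.99 in Cx3cr1 Cx43-/-, and the groups overlapped. Cardiomyocytes make connexin 43 too, so whole-node RNA does not check that genotype label. Nodal myocyte genes were present in control, with the pacemaker channel gene Hcn4 at 15.5 to 19.3 CPM and the nodal transcription factor Tbx3 at 30.1 to 37.9. Because listed genes filled less of the total in depleted libraries, each change between depleted and other libraries was also computed on a common total over listed genes and with median-of-ratios factors. The median change of all 12925 tested genes, depleted against control, was -0.49 (log2) on the deposited scale, -0.18 on a common total and -0.03 with median-of-ratios factors.

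The promoters of 6 members are shown because the ratios described further on turn on these genes: Col3a1 beside Col1a1, Col5a3 beside Col5a2, and the paired chains of types XI and VIII. The RefSeq promoter table (GRCm38.p6, a later build than that of the deposited values) held 28 of the 43 genes by symbol. Each line gives the 150 bases before the annotated start, 5′ to 3′ on the gene's strand, and capitals mark matches on either strand to the TATA motif TATAAA, the CAAT motif CCAAT or the GC-box motif GGGCGG.
Col3a1 (chr1:45311388-45311537, + strand): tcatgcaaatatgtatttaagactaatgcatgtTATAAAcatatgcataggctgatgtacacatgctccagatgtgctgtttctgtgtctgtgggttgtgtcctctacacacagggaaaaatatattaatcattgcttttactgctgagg
Col5a3 (chr9:20815068-20815217, - strand): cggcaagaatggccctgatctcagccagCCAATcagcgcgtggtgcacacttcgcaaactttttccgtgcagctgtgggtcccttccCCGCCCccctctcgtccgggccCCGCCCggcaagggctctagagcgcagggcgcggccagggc
Col11a1 (chr3:114030390-114030539, + strand): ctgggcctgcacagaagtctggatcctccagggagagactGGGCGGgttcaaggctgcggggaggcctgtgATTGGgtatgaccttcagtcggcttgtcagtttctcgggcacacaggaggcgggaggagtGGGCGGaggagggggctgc
Col11a2 (chr17:34038988-34039137, + strand): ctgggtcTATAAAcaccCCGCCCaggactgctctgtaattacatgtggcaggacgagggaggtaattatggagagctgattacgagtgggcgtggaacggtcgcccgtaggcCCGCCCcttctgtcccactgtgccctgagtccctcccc
Col8a1 (chr16:57754738-57754887, - strand): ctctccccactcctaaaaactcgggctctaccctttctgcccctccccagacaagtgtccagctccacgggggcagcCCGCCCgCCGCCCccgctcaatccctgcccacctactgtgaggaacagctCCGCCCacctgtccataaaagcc
Col8a2 (chr4:126286644-126286793, + strand): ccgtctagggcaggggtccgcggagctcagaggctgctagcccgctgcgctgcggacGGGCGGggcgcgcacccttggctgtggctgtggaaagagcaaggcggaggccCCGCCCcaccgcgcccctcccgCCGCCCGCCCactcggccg
The Col3a1 window held a TATAAA 117 bases before the start and none of the other 2 motifs. Col8a1 and Col8a2 each held 4 matches to GGGCGG within 250 bases. Within 250 bases of the start, GGGCGG was found in 19 of 31 promoters of the 28 collagen genes and in 32.7% of all 32851 promoters of the table, CCAAT in 10 and in 33.8%, and TATAAA in 3 and in 12.4%. The AP-1 motif TGANTCA was in 1 collagen promoter (Col6a1) and 6.75% of all, and the STAT motif TTCNNNGAA was in 1 (Col28a1) and 7.02% of all. The median GC content of these 250 bases was 60.4% in collagen promoters and 52.4% in all. These matches describe letters in a window and were not tested as binding sites.

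Per kilobase of transcript, the most abundant collagen RNA of control nodes was Col3a1, the only chain of type III collagen, at 93.6 ± 16.5 CPM per kb (SD, n = 3). Col1a2 and Col1a1, the chains of type I collagen, followed at 75.7 ± 7.56 and 52.2 ± 4.5 CPM per kb. Next came Col6a2 (41.8 ± 5.29), Col4a1 (39.4 ± 8.65), Col6a1 (39.2 ± 5.71), Col15a1 (31.7 ± 2.14) and Col4a2 (28.9 ± 5.23). Of the neighbours in this order, Col6a2, Col4a1 and Col6a1 differed from each other by less than the SD of each, and Col15a1 and Col4a2 by less than the SD of Col4a2. Lower levels were those of Col5a2 (12.5 ± 0.245), Col5a1 (9.56 ± 1.02) and Col4a5 (7.94 ± 0.799). The cartilage chains Col9a1 and Col2a1 stood at 0.264 ± 0.165 and 0.208 ± 0.212 CPM per kb. In Cx3cr1 Cx43-/- nodes Col3a1 reached 159.5 ± 15.4 CPM per kb, Col1a2 99.9 ± 9.26 and Col1a1 57.9 ± 5.84. Depleted nodes held 113 ± 15.2, 68.1 ± 4.65 and 39.3 ± 5.78 CPM per kb of the same chains.

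Summed over the 43 genes, collagen RNA took 2761 ± 349 CPM in control, 3583 ± 255 in Cx3cr1 Cx43-/- and 2410 ± 237 in depleted libraries (SD, n = 3). As a share of listed CPM this was 0.604% ± 0.0400, 0.759% ± 0.0632 and 0.679% ± 0.169 in the same order. Library 9 held the highest share, 0.874%, and libraries 7 and 8 held 0.593% and 0.569%. Fibrillar genes made up 53.3% ± 0.607 of collagen CPM in control, 57.1% ± 1.77 in Cx3cr1 Cx43-/- and 60.0% ± 6.16 in depleted libraries. The other types, mainly VI and XV, made up 24.4% ± 0.796, 22.4% ± 0.822 and 18.6% ± 1.17. The depleted libraries, at 17.5% to 19.8%, all lay below the others, which ranged from 21.9% to 25.3%.

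Depletion was compared with control first. In depleted nodes Col8a1, a chain of the type VIII network, rose by 0.99 ± 0.21 (log2, SE). Genes of several types fell: the type V and XI chains Col5a3 and Col11a2, the type IV chains Col4a3 and Col4a4, and Col6a6, Col8a2 and Col15a1. These falls were of 1.22 to 2.17 (log2) on the deposited scale. With median-of-ratios factors they were smaller, with changes from -0.73 (Col15a1) to -1.83 (Col4a4). The main type I, III and IV chains did not pass the test on the deposited scale, although Col3a1 did on the other scales. On the deposited scale 2 of 36 tested collagen genes rose and 15 fell (limma, Benjamini-Hochberg adjusted p under 0.05). Over all 12925 tested genes, 3.23% rose and 33.0% fell in the same fit. The median collagen change was -0.45 (log2), beside -0.49 for all genes. On a common total 5 collagen genes rose and 13 fell, where 8.79% and 19.6% of all genes did. With median-of-ratios factors 8 rose and 8 fell, where 13.3% and 12.8% of all genes did. Groups that did not overlap gave 3 collagen genes with every depleted library above every control library and 16 with every one below, beside 3.61% and 38.0% of all genes. Leaving out 1 library at a time gave 2 collagen genes higher each time and 12 to 20 lower, with 15 lower without library 9 and 20 without library 7. Col8a1 stayed called higher and 7 genes stayed called lower under every alternative in which they were tested: Col5a3, Col11a2, Col4a3, Col4a4, Col6a6, Col8a2 and Col15a1.

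**Figure D1:**
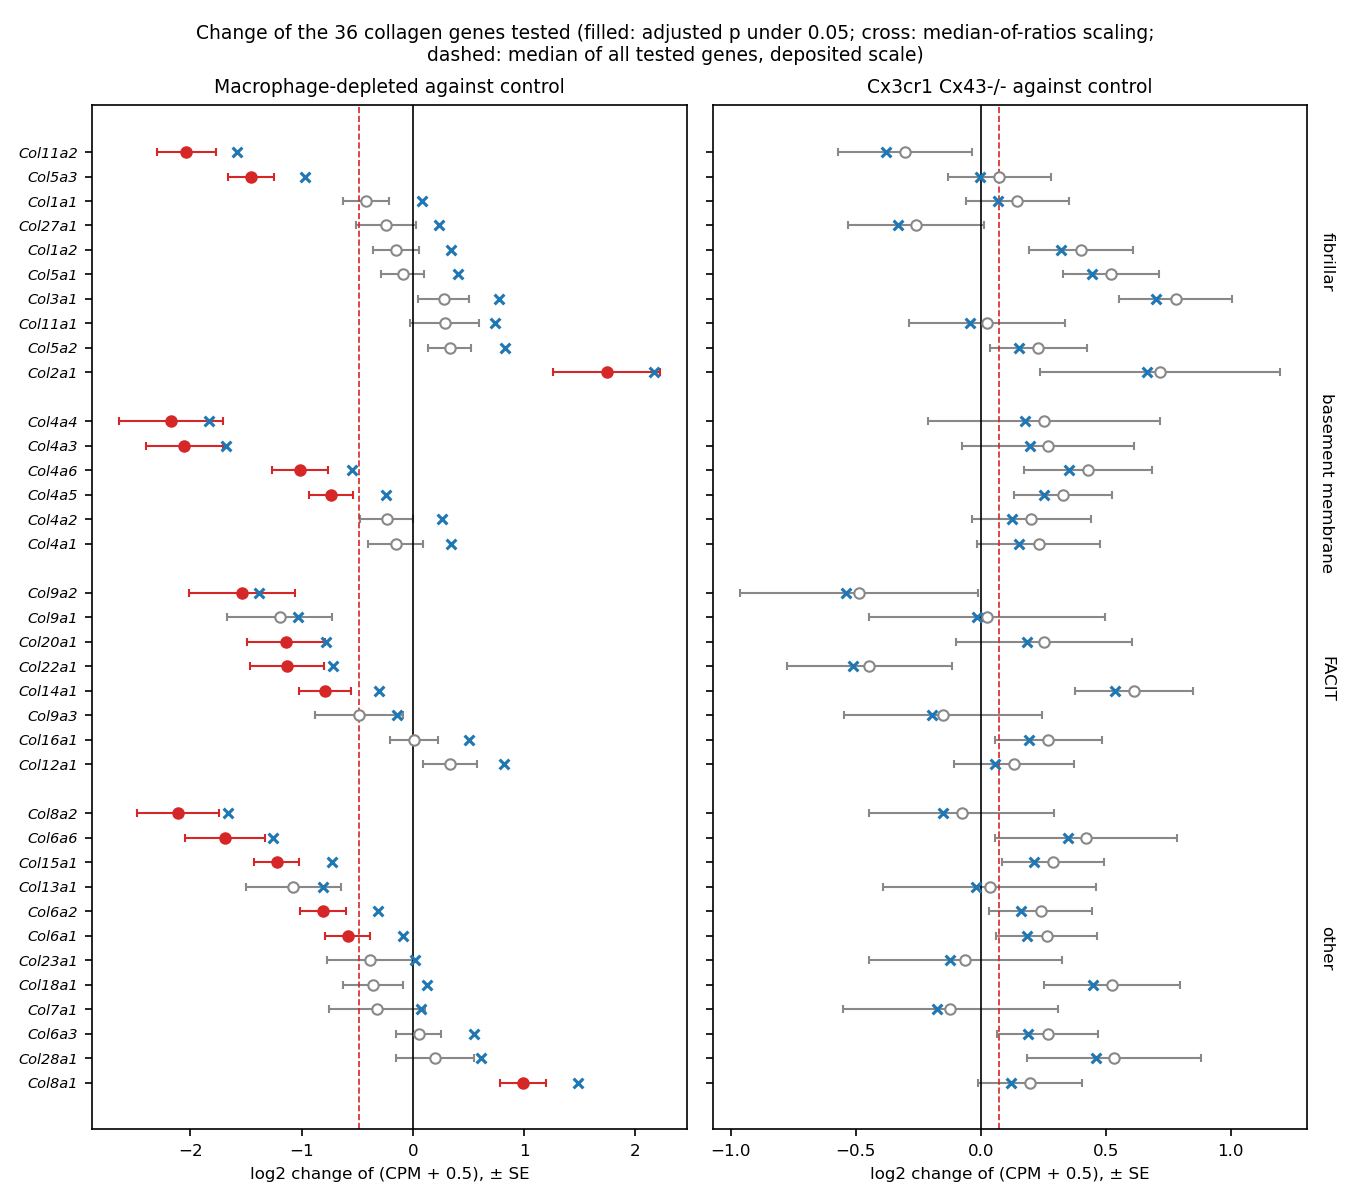
Log2 change of each tested collagen gene with its SE, by class, depleted against control (left) and Cx3cr1 Cx43-/- against control (right); filled red points have an adjusted p under 0.05, crosses give the change with median-of-ratios factors, and the dashed line is the median of all tested genes on the deposited scale. In the left panel 2 genes rose and 15 fell on the deposited scale, and the crosses lie to the right of the points, with Col5a1, Col1a1, Col1a2, Col4a1 and Col4a2 among those that pass from below 0 to above it; in the right panel no gene is filled.

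Of the fibrillar genes, 1 rose and 2 fell of 10 tested on the deposited scale (3 and 2 on a common total, 4 and 2 with median-of-ratios factors). The shares over all genes were 3.23% and 33.0% on the deposited scale, 8.79% and 19.6% on a common total. With median-of-ratios factors they were 13.3% and 12.8%. Col1a1 stood at 332, 280.0 and 318 CPM in control, 371, 305 and 354 in Cx3cr1 Cx43-/- and 245, 194 and 259.6 in depleted libraries. Col1a2 stood at 441, 361 and 413 CPM in control, 558, 477 and 568 in Cx3cr1 Cx43-/- and 337, 371 and 385 in depleted libraries. Every depleted library was below every control library for Col1a1, while the groups overlapped for Col1a2. Neither passed the test against control (Col1a1 log2 change -0.42 ± 0.21 (SE), adjusted p = 0.113; Col1a2 log2 change -0.15 ± 0.21 (SE), adjusted p = 0.585; limma), and with median-of-ratios factors their values were 0.08 (adjusted p = 0.777) and 0.35 (adjusted p = 0.149). Type III collagen mixes with type I in fibrils. Its gene Col3a1 stood at 613, 429.7 and 519 CPM in control, 939, 788 and 936 in Cx3cr1 Cx43-/- and 576, 582 and 725 in depleted libraries. Depleted and control values overlapped (log2 change 0.28 ± 0.23 (SE), adjusted p = 0.342, limma). Col3a1 was called higher on the other scales, at 0.61 (adjusted p = 0.0312) on a common total and 0.77 (adjusted p = 0.0102) with median-of-ratios factors.

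Type V collagen nucleates fibrils and sets their width. Col5a1 stood at 87.3, 70.8 and 83 CPM in control, 117, 108 and 121 in Cx3cr1 Cx43-/- and 81.7, 68.1 and 76.3 in depleted libraries. Its depleted and control values overlapped (log2 change -0.09 ± 0.19 (SE), adjusted p = 0.728, limma), and with median-of-ratios factors its sign turned, at 0.40 (adjusted p = 0.0467). Col5a2 stood at 81.9, 84.7 and 81.9 CPM in control, 94.1, 93.7 and 104 in Cx3cr1 Cx43-/- and 104, 89.6 and 121 in depleted libraries. Every depleted library was above every control library, without passing the test on the deposited scale (log2 change 0.33 ± 0.19 (SE), adjusted p = 0.181, limma). On a common total Col5a2 was called higher, at 0.67 (adjusted p = 0.0138). Col5a3, a less common chain of type V, fell: it stood at 42.9, 34.6 and 39.8 CPM in control, 42, 39.2 and 42 in Cx3cr1 Cx43-/- and 15.7, 13.6 and 12.7 in depleted libraries. The depleted values lay well under the other 6, which overlapped each other (log2 change -1.45 ± 0.21 (SE), adjusted p = 1.85e-05, limma).

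Type XI collagen is the cartilage relative of type V and can share trimers with it. Col11a2 fell, with 14.5, 16.6 and 17.4 CPM in control, 11.4, 12.2 and 15.7 in Cx3cr1 Cx43-/- and 4.94, 2.69 and 3.33 in depleted libraries (log2 change -2.04 ± 0.27 (SE), adjusted p = 7.05e-06, limma). No depleted library reached the lowest of the other 6. Its partner Col11a1 ranged from 2.79 to 5.88 CPM in control and from 4.66 to 5.56 in depleted libraries, and the groups overlapped (log2 change 0.29 ± 0.31 (SE), adjusted p = 0.481, limma). Col2a1, the cartilage fibril chain, rose from a low level, with 2.16, 0 and 1.03 CPM in control, 1.1, 1.29 and 2.66 in Cx3cr1 Cx43-/- and 5.13, 2.8 and 3.6 in depleted libraries. All 3 depleted values lay above all control values, of which library 2 was at 0 (log2 change 1.74 ± 0.48 (SE), adjusted p = 0.00777, limma). The call was lost without the filter on low values (log2 change 1.74, adjusted p = 0.0869) and with library weights (log2 change 1.28, adjusted p = 0.0647). Col27a1 ranged from 8.79 to 13.2 CPM in control and from 7.39 to 10.6 in depleted libraries.

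**Figure D2:**
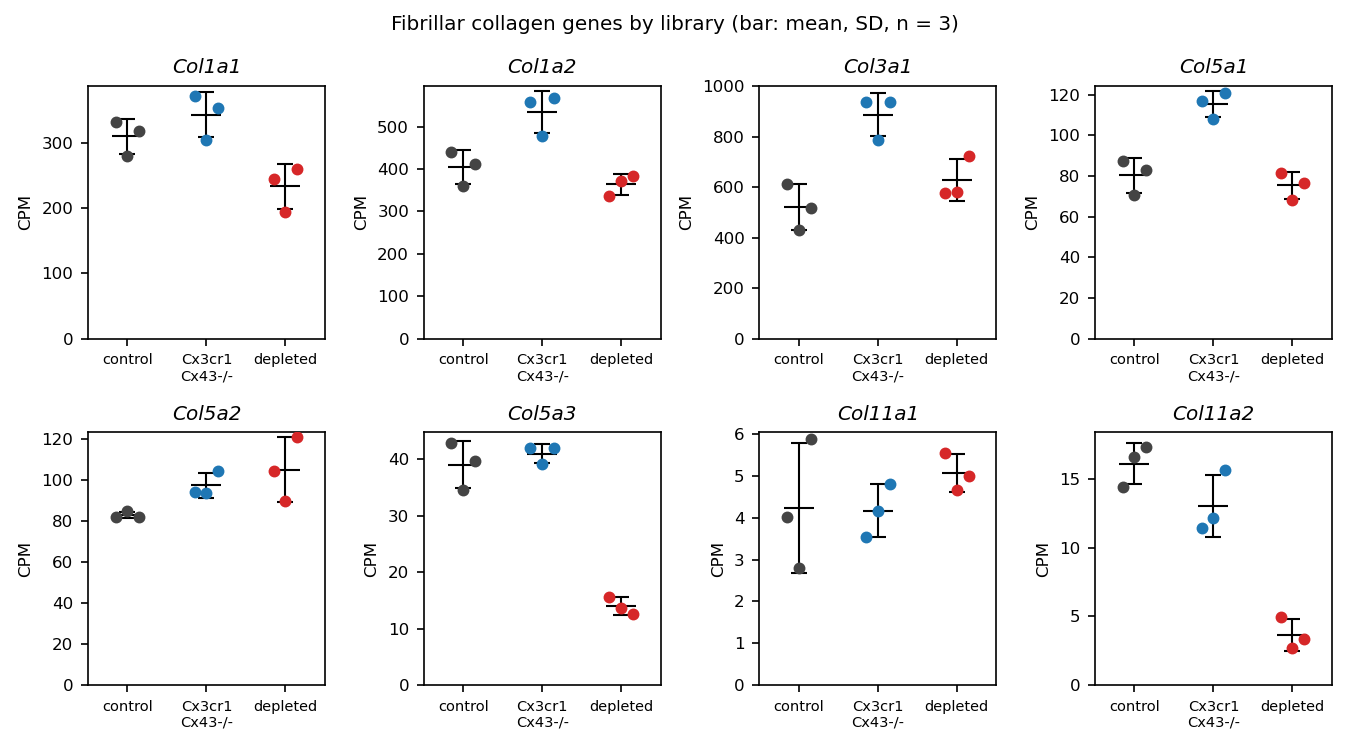
CPM of 8 fibrillar collagen genes in each of 9 libraries, with the mean and SD of 3 libraries per group, on linear axes that start at 0. Depleted libraries lie below all others for Col5a3 (12.7 to 15.7 CPM) and Col11a2 (2.69 to 4.94 CPM), and Cx3cr1 Cx43-/- libraries lie above both other groups for Col3a1 (788 to 939 CPM) and Col5a1 (108 to 121 CPM).

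Of the 6 basement membrane chains, 0 rose and 4 fell in the limma fit (0 and 4 on a common total, 0 and 3 with median-of-ratios factors). Over all 12925 genes, 3.23% were called higher and 33.0% lower on the deposited scale. At an unadjusted p under 0.05 there were 4 of 6 basement membrane chains, beside 6055 of all 12925 genes. Col4a1 and Col4a2, which form the widespread type IV network, are transcribed head to head, with RefSeq starts 21 bases apart. Col4a1 stood at 305, 196 and 281 CPM in control, 285, 288 and 329 in Cx3cr1 Cx43-/- and 355, 199 and 172 in depleted libraries. Col4a2 stood at 211, 148 and 199 CPM in control, 196, 199 and 244 in Cx3cr1 Cx43-/- and 235, 125 and 129.9 in depleted libraries. Both overlapped control (Col4a1 log2 change -0.15 ± 0.25 (SE), adjusted p = 0.644; Col4a2 log2 change -0.24 ± 0.24 (SE), adjusted p = 0.443; limma), and in both library 7 was far above libraries 8 and 9. With median-of-ratios factors the 2 values were above 0, at 0.34 (adjusted p = 0.122) and 0.26 (adjusted p = 0.252).

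The 4 less abundant type IV chains fell. Col4a3, which in kidney and lung joins Col4a4 and Col4a5, stood at 6.27, 5.11 and 5.7 CPM in control, 7.39, 5.56 and 8.12 in Cx3cr1 Cx43-/- and 1.48, 0.38 and 1.39 in depleted libraries (log2 change -2.05 ± 0.34 (SE), adjusted p = 0.000123, limma). Col4a4 stood at 9.34, 6.9 and 4.13 CPM in control, 5.91, 8.97 and 8.87 in Cx3cr1 Cx43-/- and 3.05, 0.04 and 1.42 in depleted libraries (log2 change -2.17 ± 0.46 (SE), adjusted p = 0.00119, limma). No depleted library reached the lowest control library in either gene. Col4a5, whose chain is found in smooth muscle and kidney basement membranes, stood at 51.9 ± 5.22 CPM in control, 65.1 ± 3.69 in Cx3cr1 Cx43-/- and 30.9 ± 0.694 in depleted libraries (SD, n = 3), a fall with log2 change -0.73 ± 0.19 (SE), adjusted p = 0.00586 (limma). Col4a6, its head-to-head neighbour with starts 1343 bases apart, stood at 17.9, 10.6 and 12.1 CPM in control, 16.3, 19 and 18.6 in Cx3cr1 Cx43-/- and 7.68, 5.49 and 5.85 in depleted libraries (log2 change -1.01 ± 0.26 (SE), adjusted p = 0.00417, limma). The groups did not overlap in either. The Col4a5 call was lost with median-of-ratios factors, at -0.24 (adjusted p = 0.214), and after quantile normalization, at -0.37 (adjusted p = 0.0634). The Col4a6 call was lost after quantile normalization, at -0.51 (adjusted p = 0.0569).

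**Figure D3:**
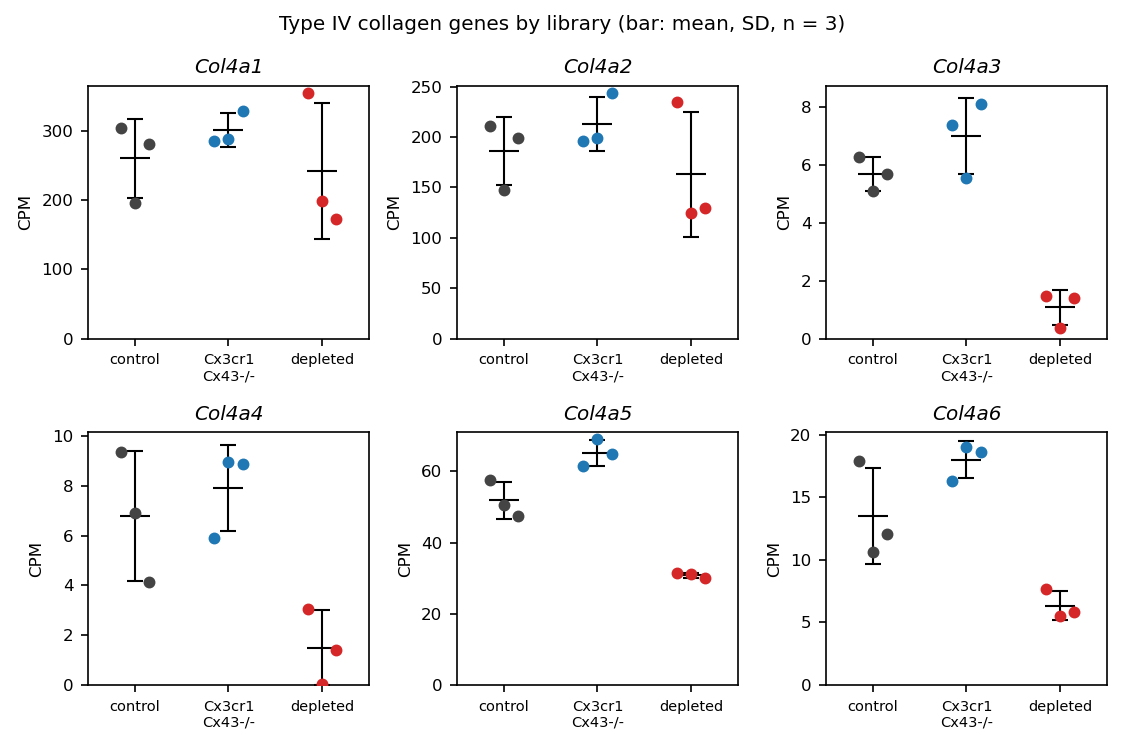
CPM of the 6 type IV collagen genes in each of 9 libraries, with the mean and SD of 3 libraries per group, on linear axes that start at 0. Depleted libraries overlap the other groups for Col4a1 and Col4a2 and lie below all other libraries for Col4a3, Col4a4, Col4a5 and Col4a6.

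Of the FACIT genes, 4 of 8 fell and 0 rose in limma (1 rose and 3 fell on a common total, 2 and 0 with median-of-ratios factors), with 5 of 8 at an unadjusted p under 0.05, as were 6055 of all 12925 genes. Over all genes, 33.0% were called lower and 3.23% higher on the deposited scale. The shares lower and higher were 19.6% and 8.79% on a common total, and 12.8% and 13.3% with median-of-ratios factors. Col14a1, a fibril-surface collagen of fibroblasts, stood at 52, 29.6 and 40.9 CPM in control, 62.5, 48.5 and 75.1 in Cx3cr1 Cx43-/- and 18.9, 25.5 and 24.5 in depleted libraries. Its depleted libraries all lay below control (log2 change -0.79 ± 0.23 (SE), adjusted p = 0.0122, limma), and the call was lost on a common total (log2 change -0.46, adjusted p = 0.153), with median-of-ratios factors (log2 change -0.30, adjusted p = 0.354), after quantile normalization (log2 change -0.38, adjusted p = 0.234), without the filter (log2 change -0.79, adjusted p = 0.0555) and without control library 1 (log2 change -0.60, adjusted p = 0.0964). Col12a1, its close relative, stood at 12.9, 14.5 and 17.6 CPM in control, 14.1, 15.5 and 20.01 in Cx3cr1 Cx43-/- and 21.8, 14.7 and 21.2 in depleted libraries. It overlapped control on the deposited scale (log2 change 0.34 ± 0.24 (SE), adjusted p = 0.273, limma) and was called higher on a common total (log2 change 0.66, adjusted p = 0.0413) and with median-of-ratios factors (log2 change 0.82, adjusted p = 0.0164). The scarcer FACIT genes had these values. Col20a1 stood at 3.47, 2.44 and 2.98 CPM in control, 4.81, 2.82 and 3.41 in Cx3cr1 Cx43-/- and 1.43, 1.09 and 0.74 in depleted libraries (log2 change -1.14 ± 0.35 (SE), adjusted p = 0.0154, limma). Col22a1, the chain of tissue junctions, stood at 4.46, 6.55 and 5.36 CPM in control, 4.46, 2.87 and 4.36 in Cx3cr1 Cx43-/- and 3.05, 2.3 and 1.46 in depleted libraries (log2 change -1.13 ± 0.33 (SE), adjusted p = 0.0109, limma). In neither gene did depleted and control libraries overlap, and both calls were lost with median-of-ratios factors, at -0.78 (adjusted p = 0.0753) and -0.72 (adjusted p = 0.0884), and after quantile normalization, at -0.63 (adjusted p = 0.138) and -0.63 (adjusted p = 0.14). The Col20a1 call was also lost without the filter (log2 change -1.14, adjusted p = 0.0502), in a fit of the 2 groups alone (log2 change -1.14, adjusted p = 0.0558) and without control library 1 (log2 change -1.03, adjusted p = 0.0729) or 3 (log2 change -1.13, adjusted p = 0.0525). Col9a2, a cartilage chain, was called lower at 0.86, 2.64 and 2.09 CPM in control, 1.05, 1.29 and 0.95 in Cx3cr1 Cx43-/- and 1.07, 0 and 0.08 in depleted libraries, but library 7 lay within the control range (log2 change -1.53 ± 0.48 (SE), adjusted p = 0.016, limma). That call was lost without control library 2 or 3 or depleted library 8 or 9, with log2 changes of -1.22 to -1.43 and adjusted p-values of 0.0539 to 0.0683. It was also lost without the filter (log2 change -1.53, adjusted p = 0.0667), with median-of-ratios factors (log2 change -1.38, adjusted p = 0.0532) and after quantile normalization (log2 change -0.75, adjusted p = 0.248). Col16a1 stood at 27.3 ± 5.03 CPM in control and 27.2 ± 2.6 in depleted libraries (SD, n = 3), and was called higher with median-of-ratios factors, at 0.50 (adjusted p = 0.0265). Col9a1 and Col9a3 did not pass the test, at 1.01 ± 0.631 and 1.55 ± 0.482 CPM in control against 0.123 ± 0.131 and 0.963 ± 0.312 in depleted libraries. Col9a1 lay just outside the threshold, with every depleted library below control (log2 change -1.20 ± 0.47 (SE), adjusted p = 0.0509, limma). It passed the filter through no depleted library. Col9a3 overlapped control (log2 change -0.49 ± 0.39 (SE), adjusted p = 0.338, limma).

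Type VI collagen is assembled from Col6a1, Col6a2 and a larger partner chain, most often Col6a3. Col6a1 stood at 184, 138 and 161 CPM in control, 195, 182 and 199 in Cx3cr1 Cx43-/- and 119, 88 and 115 in depleted libraries (log2 change -0.58 ± 0.20 (SE), adjusted p = 0.028, limma). Col6a2 stood at 216, 167 and 200.1 CPM in control, 233, 218 and 234 in Cx3cr1 Cx43-/- and 129, 88.3 and 118 in depleted libraries (log2 change -0.81 ± 0.20 (SE), adjusted p = 0.00443, limma). Both fell on the deposited scale, with no overlap between depleted and control libraries. The Col6a1 call was lost on a common total (log2 change -0.25, adjusted p = 0.268), with median-of-ratios factors (log2 change -0.087, adjusted p = 0.725), after quantile normalization (log2 change -0.30, adjusted p = 0.192), in a fit of the 2 groups alone (log2 change -0.58, adjusted p = 0.0932), without control library 1 (log2 change -0.48, adjusted p = 0.144) or 3 (log2 change -0.58, adjusted p = 0.0942), and without depleted library 8 (log2 change -0.45, adjusted p = 0.13), and the Col6a2 call with median-of-ratios factors (log2 change -0.31, adjusted p = 0.171). Col6a3 stood at 73.8, 75.5 and 66.4 CPM in control, 75.9, 97.1 and 88.2 in Cx3cr1 Cx43-/- and 88.1, 61.1 and 76.8 in depleted libraries. It overlapped control (log2 change 0.05 ± 0.20 (SE), adjusted p = 0.851, limma) and was called higher with median-of-ratios factors, at 0.55 (adjusted p = 0.0221). Col6a6, an alternative to Col6a3, fell with 11.2, 4.44 and 6.09 CPM in control, 9.98, 11.6 and 6.7 in Cx3cr1 Cx43-/- and 0.85, 2.57 and 2.25 in depleted libraries (log2 change -1.69 ± 0.36 (SE), adjusted p = 0.00125, limma). All depleted values were under the lowest control value.

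Type VIII collagen, which is made by vascular and valve cells and is part of Descemet's membrane of the eye, is built from Col8a1 and Col8a2. Col8a1 rose: it stood at 25.7, 30.6 and 26.9 CPM in control, 27.9, 28.8 and 39.8 in Cx3cr1 Cx43-/- and 58.3, 51.6 and 56.8 in depleted libraries. Every depleted library exceeded the highest of the other 6, 39.8 CPM (log2 change 0.99 ± 0.21 (SE), adjusted p = 0.00104, limma). On a common total the change was 1.32 (adjusted p = 0.000128), and with median-of-ratios factors 1.48 (adjusted p = 6.41e-05). Col8a2 fell: it stood at 11.4, 16.5 and 18.4 CPM in control, 12, 13.1 and 18.8 in Cx3cr1 Cx43-/- and 2.95, 1.27 and 7.3 in depleted libraries. Its highest depleted value, in library 9, lay below the lowest of the other 6 (log2 change -2.11 ± 0.37 (SE), adjusted p = 0.000195, limma).

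Col15a1, a basement membrane border collagen of muscle and capillaries, fell, with 175, 153 and 165 CPM in control, 203, 186 and 212 in Cx3cr1 Cx43-/- and 90.1, 60.3 and 63 in depleted libraries (log2 change -1.22 ± 0.20 (SE), adjusted p = 0.000115, limma). The groups did not overlap. Col18a1, the source of endostatin, stood at 26.6, 13.2 and 18.9 CPM in control, 27.2, 24.6 and 30.5 in Cx3cr1 Cx43-/- and 22.2, 12.5 and 11.2 in depleted libraries. It overlapped control (log2 change -0.36 ± 0.27 (SE), adjusted p = 0.305, limma). The remaining tested genes were scarce and did not pass: the transmembrane chains Col13a1 at 1.89 ± 0.81 against 0.677 ± 0.545 CPM and Col23a1 at 2.43 ± 0.689 against 1.85 ± 1.05, the anchoring fibril chain Col7a1 at 3.19 ± 1.95 against 2.26 ± 1.1, and Col28a1 at 1.87 ± 0.443 against 2.24 ± 0.646 (control against depleted, SD, n = 3). Col13a1 lay just outside the threshold, with overlap between the groups (log2 change -1.07 ± 0.42 (SE), adjusted p = 0.0512, limma). Over the 12 genes of these other types, 1 rose and 5 fell (1 and 4 on a common total, 2 and 3 with median-of-ratios factors). Over all genes, 3.23% rose and 33.0% fell on the deposited scale. The shares were 8.79% and 19.6% on a common total, and 13.3% and 12.8% with median-of-ratios factors.

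**Figure D4:**
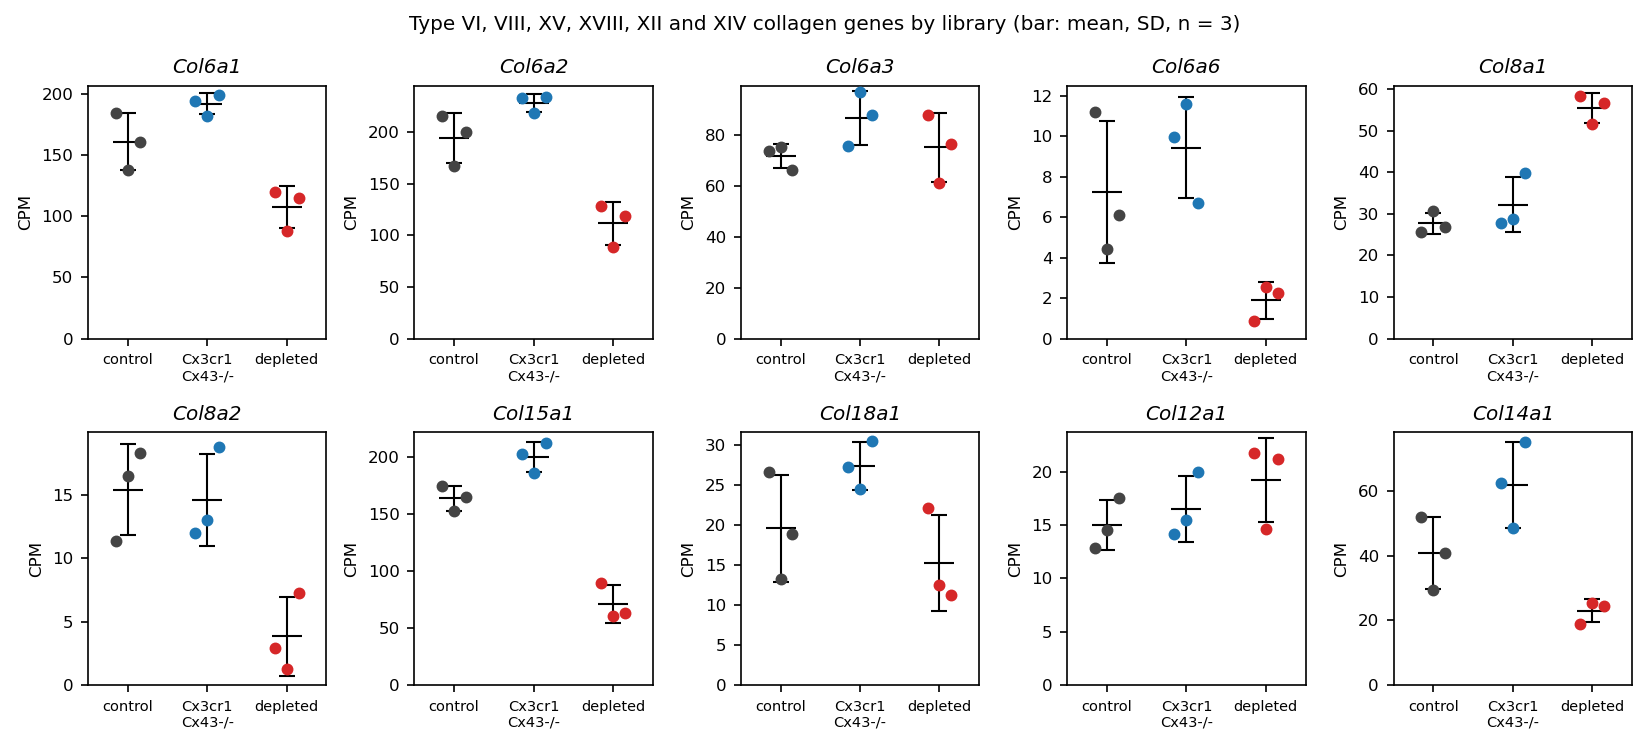
CPM of type VI, VIII, XV, XVIII, XII and XIV collagen genes in each of 9 libraries, with the mean and SD of 3 libraries per group, on linear axes that start at 0. Col8a1 is highest in the 3 depleted libraries (51.6 to 58.3 CPM), where Col8a2, Col15a1, Col6a1, Col6a2 and Col6a6 are lowest.

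Ratios of 2 genes within a library do not depend on how that library was scaled. In all, 17 ratios were compared in 3 contrasts, 51 tests. An exact two-sided permutation test of 3 libraries against 3 cannot give a p below 0.1, and every ratio with no overlap reached that value (0.176 after Benjamini-Hochberg adjustment over the 51 tests). Col3a1/Col1a1 was 1.85, 1.53 and 1.63 in control, 2.53, 2.59 and 2.65 in Cx3cr1 Cx43-/- and 2.35, 2.996 and 2.79 in depleted libraries. Both other groups lay above control, by 0.69 (pooled SD 0.16) on the log2 scale in depleted and 0.63 (pooled SD 0.0997) in Cx3cr1 Cx43-/- libraries, and both contrasts share the 3 control libraries. Col1a1/Col1a2 was 0.752, 0.775 and 0.77 in control, 0.665, 0.638 and 0.623 in Cx3cr1 Cx43-/- and 0.728, 0.523 and 0.675 in depleted libraries, lower than control in both groups, with log2 differences of -0.27 (pooled SD 0.177) and -0.25 (pooled SD 0.0377). Library 8 was lowest of all 9. Col5a1/Col1a1 was 0.263, 0.253 and 0.261 in control, 0.314, 0.355 and 0.342 in Cx3cr1 Cx43-/- and 0.333, 0.35 and 0.294 in depleted libraries, higher than control in both groups, by 0.33 (pooled SD 0.0946) and 0.38 (pooled SD 0.0676). Col4a1/Col4a2 was 1.44, 1.32 and 1.41 in control, 1.46, 1.45 and 1.35 in Cx3cr1 Cx43-/- and 1.51, 1.59 and 1.33 in depleted libraries, and its groups overlapped in every contrast, with a difference of 0.08 (pooled SD 0.105) between depleted and control.

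In other ratios the depleted libraries lay apart from the other 6, which overlapped. Col6a3/Col6a1 was 0.401, 0.549 and 0.413 in control, 0.39, 0.533 and 0.442 in Cx3cr1 Cx43-/- and 0.738, 0.695 and 0.669 in depleted libraries, a difference from control of 0.64 (pooled SD 0.185). Col6a1/Col6a2 was 0.855, 0.822 and 0.804 in control, 0.836, 0.835 and 0.851 in Cx3cr1 Cx43-/- and 0.929, 0.996 and 0.971 in depleted libraries, a difference of 0.22 (pooled SD 0.0481). In both, all depleted libraries were above the other 6. Col8a1/Col1a1 differed by 1.42 (pooled SD 0.208), Col12a1/Col14a1 by 1.15 (pooled SD 0.513) and Col15a1/Col18a1 by -0.86 (pooled SD 0.331), each with no overlap between depleted and control. The pairs above were chosen with earlier results of these data known. A further 6 pairs were added after their values had been seen, so their p-values carry no weight as tests. Among them, Col8a1/Col8a2 was 2.25, 1.85 and 1.46 in control, 2.33, 2.2 and 2.12 in Cx3cr1 Cx43-/- and 19.8, 40.6 and 7.78 in depleted libraries, a difference of 3.33 (pooled SD 0.873). Col11a1/Col11a2 was 0.278, 0.168 and 0.338 in control, 0.31, 0.342 and 0.308 in Cx3cr1 Cx43-/- and 1.13, 1.73 and 1.5 in depleted libraries, a difference of 2.51 (pooled SD 0.431). Col5a2/Col5a3 was 1.91, 2.45 and 2.06 in control, 2.24, 2.39 and 2.48 in Cx3cr1 Cx43-/- and 6.65, 6.6 and 9.56 in depleted libraries, a difference of 1.82 (pooled SD 0.252). In each the lowest depleted library lay above the highest of the other 6. Col3a1/Col1a2 was above control in both groups, by 0.43 (pooled SD 0.124) in depleted and 0.38 (pooled SD 0.0816) in Cx3cr1 Cx43-/- libraries. Col4a5/Col4a1 and Col4a6/Col4a5 overlapped control in depleted libraries, with differences of -0.59 (pooled SD 0.434) and -0.33 (pooled SD 0.263). Summed by class, fibrillar over basement membrane CPM was 2.69, 3.1 and 2.71 in control, 3.74, 3.12 and 3.2 in Cx3cr1 Cx43-/- and 2.19, 3.7 and 4.7 in depleted libraries, overlapping control in depleted libraries and above it in Cx3cr1 Cx43-/- libraries, where the log2 difference of 0.24 was 0.0453 without Col3a1 and Col4a1, the largest genes of these classes. FACIT over fibrillar CPM was 0.0611 to 0.0674 in control and 0.0461 to 0.0559 in depleted libraries, with no overlap, but without the largest gene of each class, Col14a1 and Col3a1, the log2 difference went from -0.33 to 0.12.

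**Figure D5:**
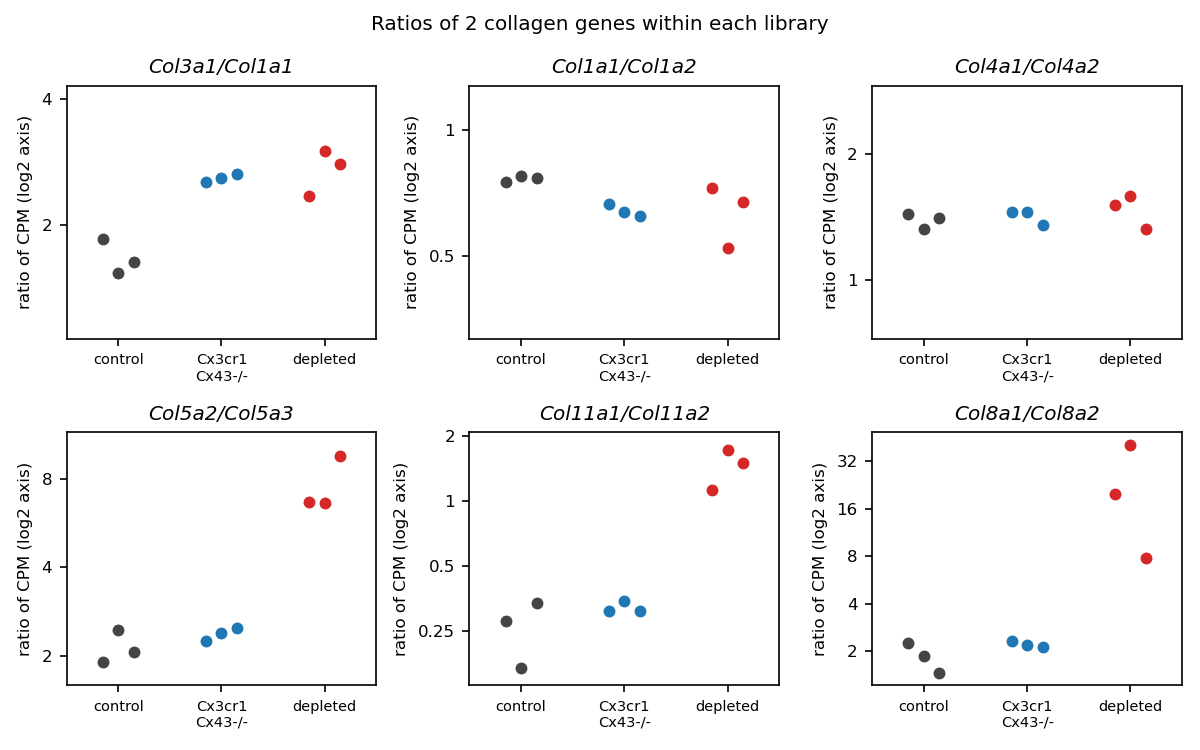
Ratio of CPM of 2 collagen genes in each of 9 libraries, on log2 axes of different range. Col3a1/Col1a1 lies between 1.53 and 1.85 in control and between 2.35 and 2.996 in the other 6 libraries, Col4a1/Col4a2 overlaps in all groups, and Col5a2/Col5a3, Col11a1/Col11a2 and Col8a1/Col8a2 (pairs added after their values were seen) are highest in depleted libraries.

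Genes that make, bind and remove collagen were followed through 6 lists, and the numbers that rose and fell are given for depleted against control, with the limma calls on the other scales in parentheses. Their part in the collagen changes was not tested. Of 20 tested chaperones and enzymes of chain maturation, 1 rose and 6 fell (5 and 1 on a common total, 6 and 1 with median-of-ratios factors). Over all genes the same scalings took the share that rose from 3.23% to 8.79% and 13.3%, and the share that fell from 33.0% to 19.6% and 12.8%. The list's median was -0.36 beside -0.49 for all genes. Fkbp10, a chaperone of collagen hydroxylation, stood at 30.1, 23.8 and 27.8 CPM in control, 29.5, 28 and 31.1 in Cx3cr1 Cx43-/- and 48.8, 44.6 and 37.1 in depleted libraries (log2 change 0.66 ± 0.21 (SE), adjusted p = 0.016, limma). Glt25d2, a collagen galactosyltransferase, stood at 8.73, 12.9 and 9.52 CPM in control, 10.8, 10.01 and 9.29 in Cx3cr1 Cx43-/- and 3.07, 0.58 and 2.53 in depleted libraries (log2 change -2.24 ± 0.35 (SE), adjusted p = 6.43e-05, limma). Fkbp10 was higher and Glt25d2 lower in all 3 depleted libraries than in the other 6. Leprel2 and P4ha2, both prolyl hydroxylases, fell by 0.71 and 0.70 (log2) on the deposited scale. Only 1 gene of the list was called lower on a common total, and 1 with median-of-ratios factors.

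Of 11 tested genes of procollagen processing and crosslinking, 2 rose and 0 fell (4 and 0 on a common total, 6 and 0 with median-of-ratios factors), with a median change of 0.02. Lox, the lysyl oxidase that starts collagen crosslinks, stood at 5.66, 5.75 and 5.46 CPM in control, 7.9, 7.15 and 8.36 in Cx3cr1 Cx43-/- and 64.2, 45.7 and 43.4 in depleted libraries (log2 change 3.05 ± 0.24 (SE), adjusted p = 2.2e-09, limma). Its lowest depleted value was 43.4 CPM and its highest elsewhere 8.36. Loxl3, a relative, rose as well (log2 change 0.89 ± 0.24 (SE), adjusted p = 0.00623, limma). Among 14 fibril-binding proteoglycans and glycoproteins, 0 rose and 5 fell (1 and 4 on a common total, 2 and 4 with median-of-ratios factors), with a median change of -0.33. Fmod, fibromodulin, stood at 125, 207 and 177 CPM in control, 132, 133 and 157 in Cx3cr1 Cx43-/- and 44.2, 37 and 66.9 in depleted libraries (log2 change -1.78 ± 0.23 (SE), adjusted p = 6.78e-06, limma). Ogn, osteoglycin (log2 change -1.25 ± 0.19 (SE), adjusted p = 3.97e-05), and Prelp, which links fibrils to basement membranes (log2 change -1.15 ± 0.21 (SE), adjusted p = 0.000302), fell as well (limma). Kera, keratocan, was scarce at 0.96 to 2.19 CPM in control and fell too (log2 change -1.72 ± 0.43 (SE), adjusted p = 0.00402, limma). Among 15 basement membrane partners of type IV collagen, 1 rose and 12 fell (1 and 12 on a common total, 1 and 7 with median-of-ratios factors), with a median change of -0.86. Pxdn, the peroxidase that crosslinks type IV collagen, stood at 57.2, 34.3 and 45.2 CPM in control, 52.2, 56.4 and 59.4 in Cx3cr1 Cx43-/- and 19.7, 16.4 and 21.3 in depleted libraries (log2 change -1.21 ± 0.22 (SE), adjusted p = 0.000262, limma). The laminin chains Lamb3, Lama5 and Lamb2 fell too, by 1.95, 1.07 and 1.02 on the log2 scale.

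Of 9 tested collagen receptors, 0 rose and 2 fell (0 and 2 on a common total, 2 and 1 with median-of-ratios factors), with a median change of -0.66. They were Itga10, a collagen-binding integrin chain (log2 change -1.31 ± 0.27 (SE), adjusted p = 0.00101), and Ddr1, a receptor kinase for collagen (log2 change -0.90 ± 0.25 (SE), adjusted p = 0.00818; limma). Of 12 genes of collagen breakdown, 3 rose and 3 fell (3 and 3 on a common total, 6 and 2 with median-of-ratios factors), with a median change of -0.10. Timp1, an inhibitor of matrix metalloproteinases, stood at 13.6, 12.3 and 12.8 CPM in control, 12.1, 12.3 and 12.3 in Cx3cr1 Cx43-/- and 439, 402 and 259.6 in depleted libraries (log2 change 4.74 ± 0.22 (SE), adjusted p = 3.43e-13, limma). Mmp3, stromelysin, stood at 26.2, 24.9 and 22.9 CPM in control, 11.8, 15.2 and 14.4 in Cx3cr1 Cx43-/- and 166, 315 and 164 in depleted libraries (log2 change 3.03 ± 0.24 (SE), adjusted p = 2.2e-09, limma). Both were higher in every depleted library than in any other. Mmp15, a membrane-bound metalloproteinase, stood at 83.6, 52.5 and 62.3 CPM in control, 53.8, 60.1 and 62 in Cx3cr1 Cx43-/- and 10.9, 5.89 and 7.87 in depleted libraries (log2 change -2.95 ± 0.24 (SE), adjusted p = 3.48e-09, limma), and Mmp9, gelatinase B, fell from 2.91 to 5.25 CPM in control to 0 to 0.83 in depleted libraries (log2 change -2.31 ± 0.44 (SE), adjusted p = 0.00046, limma).

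Markers of cells that could supply these RNAs were followed in the same contrast, and their part in the collagen changes was not tested. Their counts stand beside 3.23% of all genes that rose and 33.0% that fell on the deposited scale. The fibroblast, activated fibroblast, epicardial, adipocyte and red blood cell lists held a smaller share that fell, and the cardiomyocyte list, with 2 of 6, about the same share. In tissue RNA, fewer cells of a type and less RNA per cell cannot be told apart. Some lists share genes, so their counts are not independent. Lox is in the activated fibroblast and crosslinking lists, and Acta2 in the activated fibroblast and smooth muscle lists. Dcn, Lum and Dpt are in the fibroblast and fibril-binding lists, and Comp in the fibril-binding list and the valve and cartilage list. The 8 fibroblast markers summed to 2056 to 2359 CPM in control, 2368 to 2533 in Cx3cr1 Cx43-/- and 1578 to 2038 in depleted libraries, and 0 rose and 1 fell (1 and 1 on a common total, 1 and 0 with median-of-ratios factors). The 7 markers of activated fibroblasts summed to 501 to 534 CPM in control, 472 to 611 in Cx3cr1 Cx43-/- and 1523 to 2552 in depleted libraries. Of these 7, 5 rose and 0 fell (6 and 0 on a common total, 7 and 0 with median-of-ratios factors). Ctgf, a matricellular factor, stood at 148, 157 and 171 CPM in control, 157, 128 and 158 in Cx3cr1 Cx43-/- and 1834, 1720.1 and 947 in depleted libraries. It made up most of the sum in each depleted library. Acta2 and Tnc were not called on the deposited scale (adjusted p = 0.216 and 0.230, limma). Of 8 endothelial markers (sum 387 to 519.5 CPM in control, 458 to 522 in Cx3cr1 Cx43-/- and 198 to 351 in depleted libraries), 0 rose and 5 fell (1 and 3 on a common total, 1 and 3 with median-of-ratios factors). Of 8 markers of smooth muscle and pericytes (sum 566 to 699.7 CPM in control, 561 to 739 in Cx3cr1 Cx43-/- and 491 to 692 in depleted libraries), 2 rose and 4 fell (3 and 2 on a common total, 3 and 0 with median-of-ratios factors). Of 6 Schwann cell markers (sum 40.1 to 58.2 CPM in control, 31.7 to 47.7 in Cx3cr1 Cx43-/- and 22.9 to 25.3 in depleted libraries), 0 rose and 4 fell (0 and 4 on a common total, 0 and 2 with median-of-ratios factors). Of 6 valve and cartilage markers (sum 510.0 to 791 CPM in control, 346 to 397 in Cx3cr1 Cx43-/- and 233 to 261 in depleted libraries), 0 rose and 3 fell (0 and 2 on a common total, 0 and 2 with median-of-ratios factors). Among 6 cardiomyocyte markers (sum 22874 to 25885 CPM in control, 24571 to 25463 in Cx3cr1 Cx43-/- and 10912 to 19123 in depleted libraries), 0 rose and 2 fell on each scale, and among 5 tested nodal myocyte markers (sum of 6, 149 to 192 CPM in control, 122 to 174 in Cx3cr1 Cx43-/- and 29.7 to 45.1 in depleted libraries), 0 rose and 4 fell on each scale. Among 10 resident macrophage markers (sum 248 to 393 CPM in control, 385 to 513 in Cx3cr1 Cx43-/- and 57 to 66.8 in depleted libraries), 0 rose and 9 fell on each scale. For the 5 epicardial markers (sum 5.05 to 35.3 CPM in control, 7.7 to 32 in Cx3cr1 Cx43-/- and 4.34 to 15.4 in depleted libraries) and the 2 tested red blood cell markers (sum of 3, 3.49 to 12.9 CPM in control, 13.6 to 25.7 in Cx3cr1 Cx43-/- and 3.99 to 9.84 in depleted libraries), limma called 0 on each scale, with 0 at an unadjusted p under 0.05 on the deposited one. Of 5 tested adipocyte markers (sum of 6, 245 to 283 CPM in control, 267 to 303 in Cx3cr1 Cx43-/- and 267 to 736 in depleted libraries), 0 rose and 0 fell (1 and 0 on a common total, 1 and 0 with median-of-ratios factors), with 1 at an unadjusted p under 0.05 (limma). No marker in these lists was at 0 in all 9 libraries, and Cd163 was at 0 in depleted library 8.

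Loss of connexin 43 in Cx3cr1-expressing cells was compared with the same control libraries. No collagen gene was called: limma called 0 of 36 higher and 0 lower, with 3 of 36 at an unadjusted p under 0.05, and over all genes 0% higher and 0.00774% lower, with 191 of 12925 at an unadjusted p under 0.05. The median collagen change was 0.24 (log2) beside 0.07 for all genes, and 28 of 36 changes were above 0, as were 8450 of 12925 over all genes. Every Cx3cr1 Cx43-/- library lay above every control library for 9 of 36 collagen genes and below for 0, beside 5.94% and 3.0% of all genes. The 9 were Col1a2, Col3a1, Col5a1, Col5a2, Col4a5, Col6a2, Col6a3, Col15a1 and Col28a1. Col3a1, with values given above, had the smallest p of the family, 0.00213 before adjustment (log2 change 0.78 ± 0.23 (SE), adjusted p = 1, limma). Col5a1 (log2 change 0.52 ± 0.19 (SE), adjusted p = 1) and Col14a1 (log2 change 0.61 ± 0.23 (SE), adjusted p = 1) had unadjusted p-values of 0.0125 and 0.0153 (limma). Col1a2 (log2 change 0.40 ± 0.21 (SE), adjusted p = 1) and Col1a1 (log2 change 0.15 ± 0.21 (SE), adjusted p = 1) gave smaller values, and so did Col4a1 (log2 change 0.23 ± 0.25 (SE), adjusted p = 1) and Col8a1 (log2 change 0.20 ± 0.21 (SE), adjusted p = 1; limma). Of 8 fibroblast markers, limma called 0 in this contrast, with 2 at an unadjusted p under 0.05 and a median change of 0.27. Of the marker sums given above, those of fibroblasts and red blood cells lay wholly above control in Cx3cr1 Cx43-/- libraries. That of resident macrophages lay mostly above control, and that of valve and cartilage markers wholly below it. The sums of the remaining marker lists overlapped control. The part of these cells in the collagen values was not tested. Among the marker lists, 1 gene was called lower, Cytl1 of the valve and cartilage list, at 197, 245 and 226 CPM in control, 87.4, 116 and 83.2 in Cx3cr1 Cx43-/- and 54.6, 48.4 and 53.5 in depleted libraries (log2 change -1.23 ± 0.20 (SE), adjusted p = 0.033, limma). The 6 lists of collagen production, binding and breakdown held 0 called genes in limma, with 0 to 3 genes of each list at an unadjusted p under 0.05.

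Depleted and Cx3cr1 Cx43-/- libraries were also compared directly. On the deposited scale 1 of 36 collagen genes was higher in depleted libraries and 19 were lower (limma), where 2.69% and 40.7% of all genes were. On a common total the numbers were 1 and 13, beside 8.47% and 20.9% of all genes, and with median-of-ratios factors 4 and 12, beside 13.3% and 12.6%. Col8a1 was the higher gene (log2 change 0.80 ± 0.21 (SE), adjusted p = 0.00471, limma). The chains lower on all 3 scales included Col4a3 (log2 change -2.32 ± 0.34 (SE), adjusted p = 3.01e-05), Col4a4 (log2 change -2.42 ± 0.46 (SE), adjusted p = 0.000401), Col4a5 (log2 change -1.06 ± 0.19 (SE), adjusted p = 0.000257) and Col4a6 (log2 change -1.44 ± 0.26 (SE), adjusted p = 0.000191; limma). Col15a1 (log2 change -1.51 ± 0.20 (SE), adjusted p = 9.73e-06), Col14a1 (log2 change -1.40 ± 0.23 (SE), adjusted p = 0.000107) and Col6a6 (log2 change -2.11 ± 0.36 (SE), adjusted p = 0.000143) were among them (limma). Col1a1 (log2 change -0.56 ± 0.21 (SE), adjusted p = 0.0313) and Col1a2 (log2 change -0.55 ± 0.21 (SE), adjusted p = 0.0362) were called lower on the deposited scale in limma, but on a common total they were not, at -0.18 (adjusted p = 0.468) and -0.16 (adjusted p = 0.486), and with median-of-ratios factors the signs turned, at 0.011 (adjusted p = 0.97) and 0.025 (adjusted p = 0.93). Both calls were also lost when library 4, 5, 6 or 8 was left out, at adjusted p-values of 0.0623 to 0.147. Col5a1, Col9a1, Col13a1 and Col18a1 were likewise lost on a common total and on leaving out single libraries (library 6 or 8 for each of the 4). Col9a1 passed the filter only through libraries 1, 3 and 5, none of them depleted, so the filter itself favoured a lower depleted value. Col3a1 did not pass on the deposited scale (log2 change -0.50 ± 0.23 (SE), adjusted p = 0.0735, limma), and its ratio to Col1a1 differed by 0.06 (pooled SD 0.13) between the groups, with overlap.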

How the data were processed

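Total RNA of microdissected nodes was made into directional libraries, per the labels' protocols. The authors deposited CPM rounded to 2 decimals for 34198 symbols in 9 columns. The tools, per the submitters' processing notes, included HTSeq 0.6.0 and STAR 2.3.0 with edgeR, on build mm9, in no stated role. Which annotation was used was not given in the sources used here. Values at or below 1 CPM lay within rounding (0.005 CPM) of whole reads in every library, as would 52.0% to 65.0% of all 2-decimal numbers. No count model was fitted, and 0 pairs of libraries were identical.

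From these values, log2(CPM + 0.5) was fitted with limma 3.58.1 in R 4.3.3, in a single model of all 9 libraries with a trended variance, for 12925 genes at 1 CPM or more in at least 3 libraries. Genes were called at a two-sided Benjamini-Hochberg adjusted p under 0.05 over all of them. This scale understates changes of low genes. Ratios were tested by exact permutation (scipy 1.17.1). CPM per kb used the longest protein-coding transcript of GENCODE M21. Per-library values were given for 15 genes chosen by name and for the genes with the largest called changes, and up to 4 called genes with the smallest p were named per pathway list. The members, lists and pairs were chosen with earlier results of these data known. Alternatives were other pseudocounts (0.1 and 2), filters (none, or a mean of 5 CPM), scalings (common total, median-of-ratios, quantile), thresholds (0.01 and 0.1), robust variance, library weights, fits of 2 groups and leaving out each library. The fit was tested on simulated data with normal noise and no shift of scale between libraries, so that test does not bear on the choice of scaling. Figures were drawn with matplotlib 3.10.9.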

Additional observations from a re-analysis of the deposited data

How the results depend on the processing

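For depleted against control, 2 collagen genes were higher on the deposited scale and 1 without a filter, 1 when genes under a mean of 5 CPM were dropped, 1 with library weights, 5 on a common total, 8 with median-of-ratios factors and 5 after quantile normalization. The 15 lower became 8 with median-of-ratios factors and 8 after quantile normalization. Leaving out 1 library gave 2 higher each time and 12 to 20 lower. For depleted against Cx3cr1 Cx43-/-, 1 higher became 2 with a pseudocount of 2, in a fit of the 2 groups or at an adjusted p under 0.1, and 4 with median-of-ratios factors or quantile normalization, and 19 lower became 12 under each of the last 2. Leaving out 1 library gave 1 higher each time and 13 to 23 lower. For Cx3cr1 Cx43-/- against control, 0 were called under every alternative run. Of 36 collagen genes, 9 changed sign with median-of-ratios factors in depleted against control and 11 in depleted against Cx3cr1 Cx43-/-. Those called on either scale were 3: Col5a1 in depleted against control, 0.40 (adjusted p = 0.0467) in place of -0.09, and Col1a1, 0.011 (adjusted p = 0.97) in place of -0.56, and Col1a2, 0.025 (adjusted p = 0.93) in place of -0.55, in depleted against Cx3cr1 Cx43-/- (limma). Without the largest gene of each class, the FACIT over fibrillar log2 difference was 0.122 in place of -0.33 against control and 0.284 in place of -0.20 against Cx3cr1 Cx43-/-, and the fibrillar over basement membrane difference of Cx3cr1 Cx43-/- against control was 0.0453 in place of 0.24. The cause of these shifts was not tested.

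For the gene lists, the numbers higher and lower in depleted against control under the 3 scalings stand with each list in the results. In depleted against Cx3cr1 Cx43-/-, 2.69% of all genes were higher and 40.7% lower on the deposited scale. These shares were 8.47% and 20.9% on a common total, and 13.3% and 12.6% with median-of-ratios factors. The list counts that follow stand beside them. Against Cx3cr1 Cx43-/- the numbers higher and lower on the deposited scale, a common total and with median-of-ratios factors were, in this order, 2 and 4, 5 and 2, and 5 and 1 for chain maturation, 2 and 5, 3 and 0, and 3 and 0 for processing and crosslinking, 0 and 7, 0 and 3, and 0 and 3 for fibril-binding genes, 1 and 13, 1 and 12, and 1 and 11 for basement membrane partners, 0 and 4, 0 and 2, and 1 and 2 for receptors and 3 and 5, 3 and 3, and 5 and 2 for breakdown. Marker lists gave 0 and 4, 0 and 2, and 0 and 1 for fibroblasts, 5 and 0, 6 and 0, and 7 and 0 for activated fibroblasts, 0 and 5, 0 and 4, and 1 and 2 for endothelium, 2 and 4, 3 and 3, and 3 and 0 for smooth muscle and pericytes, 0 and 3, 0 and 0, and 0 and 0 for Schwann cells, 0 and 2, 0 and 1, and 0 and 1 for valve and cartilage, 0 and 0, 1 and 0, and 1 and 0 for adipocytes, 0 and 2, 0 and 2, and 0 and 1 for cardiomyocytes and 0 and 2, 0 and 2, and 0 and 1 for red blood cells. Resident macrophage markers gave 0 and 10, 0 and 10, and 0 and 9, and nodal myocyte markers 0 and 5, 0 and 4, and 0 and 4. Epicardial markers gave 0 and 0 on each scale. In depleted against control, several list counts moved by over 1.5 times with scaling, and the following are among them. Chain maturation genes lower were 1 in place of 6 on both other scales. Those higher were 5 on a common total and 6 with median-of-ratios factors, in place of 1. With median-of-ratios factors, smooth muscle and pericyte genes lower were 0 in place of 4, and basement membrane partners lower 7 in place of 12. Crosslinking genes higher were 6 in place of 2 on that scale.

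No paired analysis was possible because the libraries are numbered 1 to 9 with no number shared between groups. Quantities limited by depth are those of genes near the filter, where 1 CPM rested on 52.2 to 65.0 reads and intervals from counts were not computed. The library weights came from a fit that stopped before its convergence tolerance was met. With 3 libraries a group, p-values cover no spread beyond these libraries. The limma p-values also borrow spread from genes of similar level, with 23.8 degrees of freedom.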
